A study of Mus musculus with 108 samples.

Results

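Immunoglobulin and T cell receptor genes are assembled in lymphocytes from arrays of V, D and J segments, and 616 such segments (513 V, 20 D and 83 J) were taken from the RefSeq annotation of the mouse genome by symbols beginning with Ighv, Ighd, Ighj, Igkv, Igkj, Iglv, Trav, Traj, Trbv or Trbj, of 49210 RefSeq genes and pseudogenes. RefSeq describes 444 of them as functional segments and 172 as pseudogenes. Every bin of 200 bp from the first to the last segment of a locus was then read, which gave 41922 bins of the 13168874 in the genome, or 8.38 Mb. On mm10 the loci were Igh (immunoglobulin heavy chain) at chr12:113428514-116009954 with 207 segments, Igk (kappa light chain) at chr6:67555636-70723923 with 167, Igl (lambda light chain) at chr16:19085017-19260844 with 3, Tra (T cell receptor alpha) at chr14:52427967-54218842 with 190 and Trb (T cell receptor beta) at chr6:40891296-41558371 with 49. In order along the chromosome the first and last segments were Ighj4 and Ighv1-86, Igkv2-137 and Igkj5, Iglv1 and Iglv2, Trav1 and Traj1, and Trbv1 and Trbv31.

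The livers were profiled by ChIP-seq for the marks H3K4me3, H3K27me3, H3K27ac and H3K4me1. They were formalin-fixed, paraffin-embedded tissue of inbred C57BL/6 female mice, and 108 libraries came from 31 mice. The groups used here were SD 3m (standard diet, 3 months old, 8 mice, 30 libraries), SD 12m (standard diet, 12 months old, 8 mice, 29 libraries) and CR 12m (calorie-restricted diet begun at 3 months, 12 months old, 9 mice, 29 libraries). Not every mouse gave a library of every mark. In the order SD 3m, SD 12m and CR 12m, H3K4me3 had 7, 8 and 5 libraries and H3K27me3 had 7, 8 and 6. These are the marks of states 6 and 7 described below, so the merged input for them was unequal between groups. The authors merged the libraries of a group and gave each bin 1 of 8 chromatin states, so each group has a single segmentation, no difference between groups could be set against the spread between mice, and the read depth of a bin is unknown. Where 3 values follow each other without a name they stand for SD 3m, SD 12m and CR 12m. The question put to the data was how the chromatin states of the same tissue differ with age and with diet. States 1 to 5 carry the active marks (1 active TSS, 2 flanking TSS, 3 and 4 active enhancer, 5 poised enhancer), state 6 carries H3K27me3 (repressed Polycomb), state 7 carries weak H3K4me3 and minimal H3K27me3 (named age-related by the authors) and state 8 carries none of the marks (quiescent). A liver is a mixture in which hepatocytes hold the loci unrearranged and B and T cells hold some of them rearranged. A change in the number of lymphocytes and a change of chromatin within a cell type cannot be told apart.

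In developing B and T cells the RAG1 and RAG2 proteins cut beside a V, a D or a J segment, and end joining factors fuse the pieces into 1 exon that is spliced to a constant gene. The cut is directed by a recombination signal of a heptamer and a nonamer separated by a spacer of 12 or 23 bases, and a pair of segments is joined efficiently when their spacers differ. Transcription then depends on a promoter before each V segment, which in immunoglobulin genes usually holds an octamer, and on enhancers near the J segments and constant genes. In hepatocytes these genes are silent.

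The signals and promoters below show the sequence in which the states were read. Each signal lies beside its segment and is read away from it, and capitals mark the heptamer (CACAGTG when exact) and the nonamer (ACAAAAACC when exact). The V signals are, in each locus with an exact heptamer, those of the first functional V segment along the chromosome with the fewest differences from the nonamer, here none. They lie at chr12:113879057-113879095 on the minus strand, chr6:67556217-67556244 on the plus strand, chr14:52581214-52581252 on the plus strand and chr6:40891886-40891924 on the plus strand of GRCm38, and the bin at the start of each of these V segments was in state 8 in all 3 groups.
Ighv2-9: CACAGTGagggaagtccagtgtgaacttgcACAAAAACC
Igkv2-137: CACAGTGatacagccctgaACAAAAACC
Trav3-1: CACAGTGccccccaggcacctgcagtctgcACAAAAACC
Trbv1: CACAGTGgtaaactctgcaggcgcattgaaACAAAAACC

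The J signals, chosen after their values were seen, come from the kappa and alpha J clusters and are read away from the segment on the minus strand, at chr6:70722523-70722561 and chr14:54184671-54184698. Igkj1 was in state 6 in every group, and Traj34 was in state 5 in SD 3m and in state 6 in SD 12m and CR 12m. Trbj1-1, the functional Trbj with an exact heptamer and the fewest differences, had 5 in the nonamer and is not shown. As the pairing of spacers requires, the kappa J signal has the long spacer where the kappa V signal above has the short one. The alpha J signal has the short spacer where the alpha V signal has the long one.
Igkj1: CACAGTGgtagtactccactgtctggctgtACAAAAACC
Traj34: CACAGTGatatcatgttctACAAAAACC

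An exact heptamer, searched outward from the segment on 1 strand, lay within 60 bases of 108 of 183 Ighv, 108 of 162 Igkv, 0 of 3 Iglv, 100 of 130 Trav and 8 of 35 Trbv segments. Among J segments it lay beside 3 of 5 Igkj, 14 of 60 Traj, 2 of 14 Trbj and 0 of 4 Ighj. It was found in 0.868% of windows of the same length taken from the last 60 bases of 32851 RefSeq promoters. With at most 3 differences in the nonamer, the spacer was of 12 bases after 105 Igkv and of 23 bases after none. It was of 23 bases after 39 Ighv, 85 Trav and 5 Trbv segments and of 12 bases after none of them. Functional segments had the exact heptamer more often than pseudogenes, in 88 of 102 against 20 of 60 Igkv and in 86 of 120 against 22 of 63 Ighv. A match is a description of letters and not of a site in use.

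The promoters run from 250 bases before to 50 bases into the first functional Ighv and Igkv segment with an octamer, at chr12:113578941-113579240 on the minus strand and chr6:67555386-67555685 on the plus strand. Capitals mark the octamer, ATGCAAAT in the heavy chain and its reverse complement ATTTGCAT in the kappa chain. Ighv5-2 had a different state in each group (6, 7 and 8), whereas Igkv2-137 was in state 8 throughout.
Ighv5-2: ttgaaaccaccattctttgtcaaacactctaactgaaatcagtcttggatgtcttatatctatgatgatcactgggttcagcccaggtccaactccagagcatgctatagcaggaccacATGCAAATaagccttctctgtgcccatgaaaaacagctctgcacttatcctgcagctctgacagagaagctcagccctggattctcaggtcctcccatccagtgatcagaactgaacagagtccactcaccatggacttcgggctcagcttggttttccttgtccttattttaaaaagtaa
Igkv2-137: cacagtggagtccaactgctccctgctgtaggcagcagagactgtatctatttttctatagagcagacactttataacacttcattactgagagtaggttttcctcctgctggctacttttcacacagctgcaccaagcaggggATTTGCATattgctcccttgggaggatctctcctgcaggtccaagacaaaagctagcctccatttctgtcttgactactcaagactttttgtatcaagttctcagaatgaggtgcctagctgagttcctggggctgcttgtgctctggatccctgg

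The octamer, searched on both strands, lay in the 250 bases before 106 of 183 Ighv (57.9%), 94 of 162 Igkv (58.0%) and 3 of 3 Iglv segments, and before 0 of 130 Trav and 0 of 35 Trbv segments. It lay in the same window of 1.60% of all RefSeq promoters. All matches before Ighv segments read forward, and all 94 Igkv segments with a match had it in reverse, 2 of them in both orientations. Functional immunoglobulin V segments had it in 154 of 225 cases and pseudogenes in 49 of 123. In SD 12m the octamer preceded 11 of 16 Ighv segments in state 7 and 90 of 160 in state 8, and 13 of 27 Igkv segments in state 7 and 78 of 131 in state 8.

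In the livers of SD 3m, most bins of the 5 loci carried none of the marks, from 79.4% of the bins of Trb to 871 of the 880 bins of Igl. Over all loci state 8 covered 94.0% of their bins (Wilson 95% interval 93.8 to 94.2) against 66.1% of the genome, and states 1 to 5 covered 0.895% (0.809 to 0.989) against 22.5% of the genome. In SD 12m, state 7 covered 9.03% of the loci (8.76 to 9.31) after 2.35% (2.21 to 2.5) in SD 3m, and state 6 covered 8.09% (7.84 to 8.36) after 2.75% (2.60 to 2.91). In CR 12m, state 7 was at 2.58% (2.43 to 2.73) and state 6 at 5.43% (5.22 to 5.65). Neighbouring bins often share a label, so these intervals cover the counting of bins alone and are too narrow. Over the whole genome, state 7 covered 1.89%, 11.4% and 4.15% of bins and state 6 covered 9.48%, 14.4% and 10.3%. SD 12m and CR 12m were both set against the single SD 3m segmentation.

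**Figure D1:**
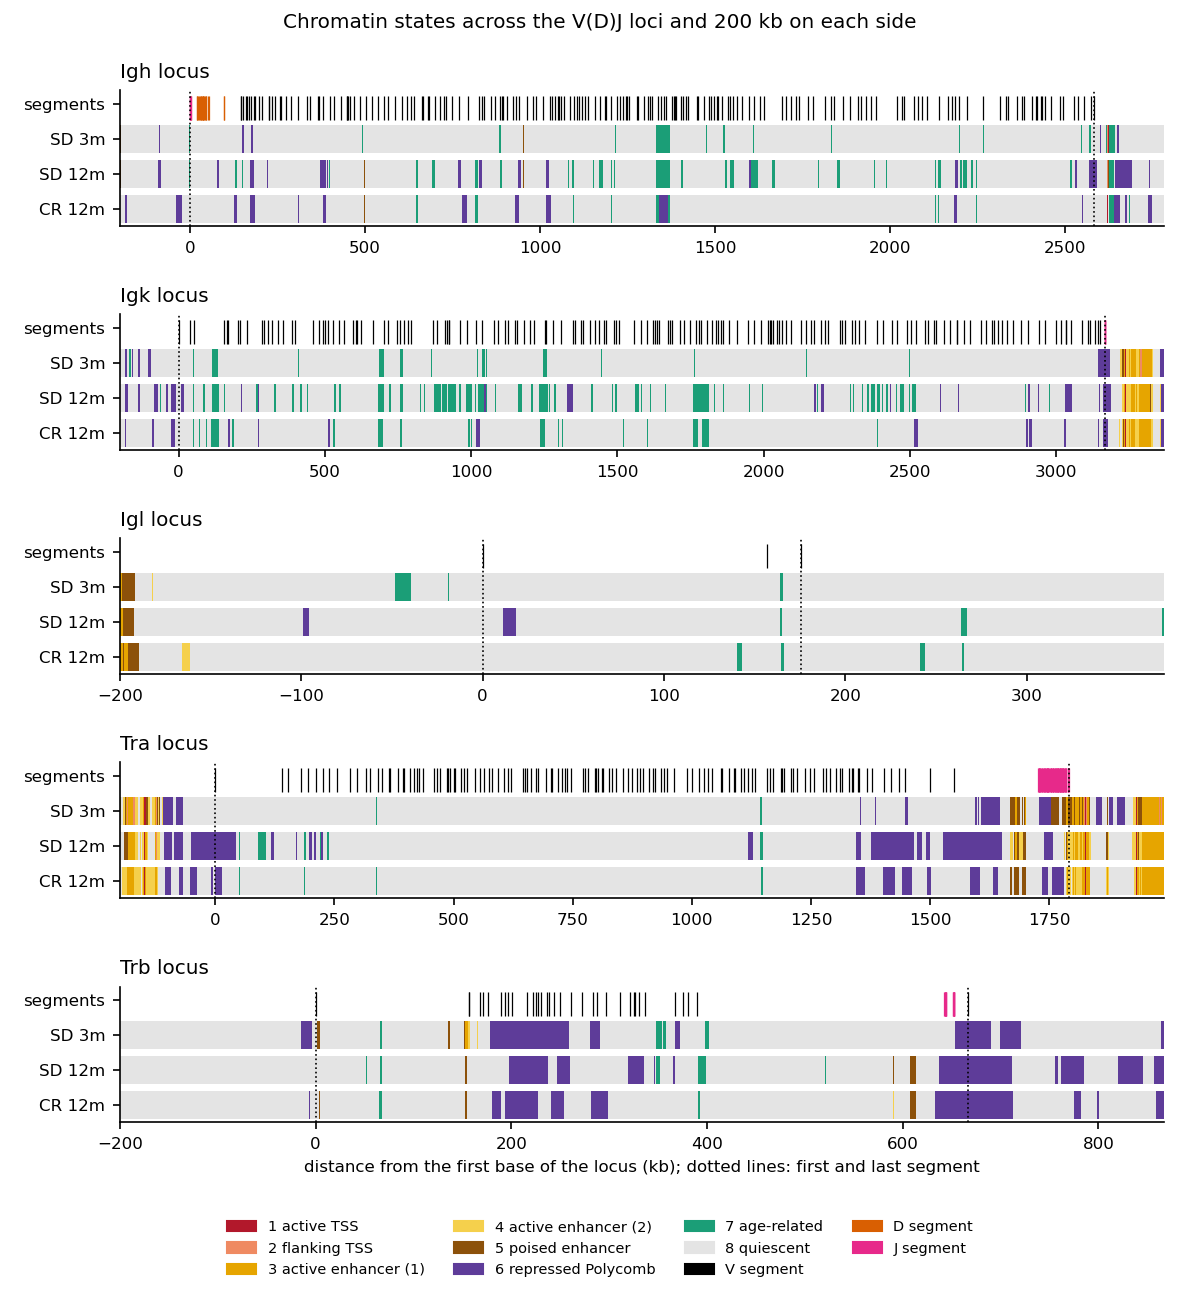
Chromatin state (colour) along the 5 loci and 200 kb on each side in SD 3m, SD 12m and CR 12m, against the distance from the first base of the locus in kb, with V, D and J segments as ticks above and dotted lines at the first and last segment. Grey (state 8) fills most of the arrays, green (state 7) is most frequent across Igk in SD 12m, and violet (state 6) lies at the J ends of Igk, Tra and Trb.

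The loci differed from SD 3m in a smaller share of bins than the genome did. In SD 12m, 15.9% of their bins (15.6 to 16.3) had another state, against 31.9% of all bins, and in CR 12m 8.45% (8.19 to 8.72) against 24.2%. Of the locus bins without a mark at 3 months, 7.81% carried state 7 in SD 12m against 15.2% in the genome, and 6.50% carried state 6 against 12.6%. In CR 12m these shares were 1.80% against 4.76% for state 7 and 3.45% against 7.69% for state 6. In all, 78.4% of the locus bins were in state 8 in every group. In the genome, state 8 covered 66.1%, 51.6% and 62.7% of bins in the single groups. Other large receptor gene families that hepatocytes do not use had more of state 7 in both 12m groups, with 1.87%, 23.7% and 8.46% of the bins of olfactory receptor (Olfr) genes and 10.1%, 32.2% and 19.4% of those of vomeronasal receptor (Vmn) genes in SD 3m, SD 12m and CR 12m. These bins are those of the genes alone, whereas 40133 of the 41922 locus bins lie between segments. In bins that overlap a segment, state 7 was at 1.4%, 7.1% and 1.29%. How much of the Olfr and Vmn genes can be mapped uniquely was not obtained.

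The surroundings of the arrays differed from locus to locus. In the 1 Mb on each side of the 5 loci, states 1 to 5 covered 28.0%, 29.5% and 30.5% of 50000 bins in SD 3m, SD 12m and CR 12m, and state 8 covered 60.4%, 53.4% and 57.2%. State 7 was scarce there, at 0.764%, 2.05% and 0.698%. In SD 3m, states 1 to 5 covered 47.7% of the 1 Mb after Tra and 53.1% of that after Igk, but 4.30% before Trb and 13.5% after it, 9.76% after Igl and 10.5% after Igh. The nearest bin in states 1 to 5 after the last Ighv segment was 36.8 to 37.2 kb away in the 3 groups, and the nearest one before the Ighj segments was 197.0 to 197.2 kb away. After Trb it was 659.6 to 668.6 kb away. Around Igk, an unbroken run of 3449.8 kb in SD 3m and of 3457.8 kb in SD 12m held no bin in states 1 to 5, and in CR 12m a single bin interrupted it. Igl lay in such a run of 1040.0 to 1067.0 kb. The Tra locus, in contrast, reached its last J segment in states 4 or 5.

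**Figure D2:**
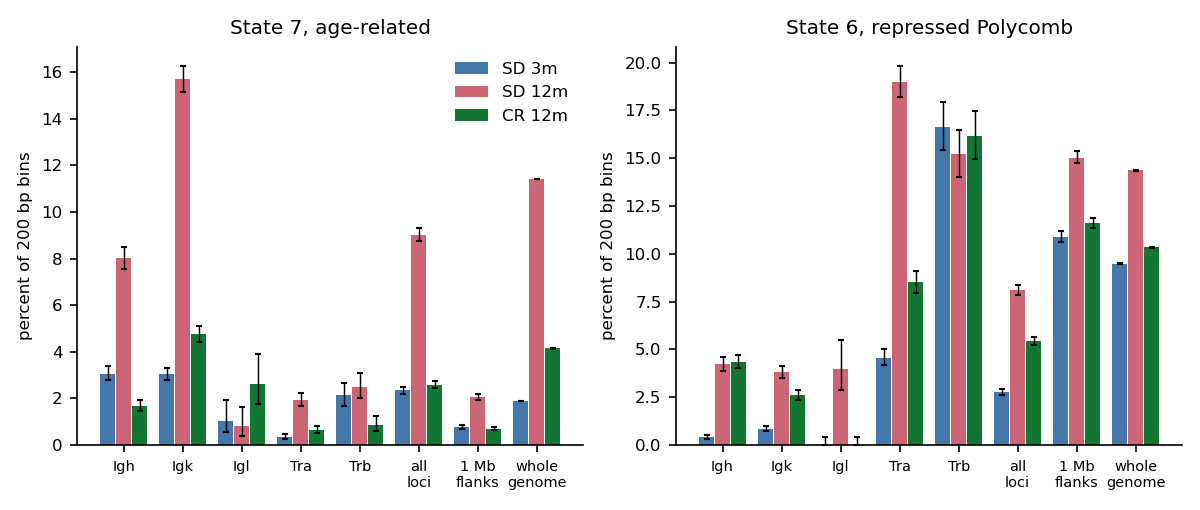
Percent of 200 bp bins in state 7 (left) and state 6 (right) in each locus, in all loci, in 1 Mb on each side and in the whole genome, as bars for SD 3m, SD 12m and CR 12m starting at 0, with Wilson 95% intervals over bins as error bars. State 7 in SD 12m was highest in Igk (15.7%) and state 6 in SD 12m was highest in Tra (19.0%), while Trb held 15.2% to 16.6% of state 6 in every group.

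Igk, the longest array, had the highest share of state 7 in SD 12m, with 2487 of the 3786 state 7 bins of all loci. Its share was 3.03% (2.77 to 3.31), 15.7% (15.1 to 16.3) and 4.75% (4.43 to 5.09). State 6 was at 0.846%, 3.81% and 2.61%. In blocks of 100 kb, the share of state 7 in SD 3m had a median of 0% and reached 21.4%, and in SD 12m it had a median of 11.8% and reached 64.4%. Of 32 blocks, 27 had a higher share in SD 12m than at 3 months and none a lower one, whereas in CR 12m 13 were higher and 8 lower. The block with the highest share, chr6:68455601-68555600 from Igkv15-102 to Igkv1-99, was at 0%, 64.4% and 4.2%.

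The same was read at the V segments. The bin at the 5′ end of a segment was in state 7 for 3, 27 and 3 of 162 Igkv segments. Of all RefSeq genes, 1.89%, 5.77% and 2.38% had their TSS in state 7. All 5 members of the Igkv15 family were among the 27, with 5 of 12 Igkv12 and 3 of 8 Igkv14 segments. Also among them were 5 of 19 Igkv13, 3 of 13 Igkv1 and 3 of 33 Igkv4 segments. None of the 13 Igkv8 or of the 10 Igkv2 segments was. Members of a family can lie side by side and share stretches of 1 state, so they are not independent. The Igkv15 segments lie in and beside the 100 kb block with 64.4% of state 7 in SD 12m. Several Igkv8 segments lie in a run of 225.2 kb in state 8 in all groups. In this run 53.2% of 50-base windows occur once in the genome, against 91.1% in the block and a median of 90.1% for Igkv2 segments. The parts of family, position and uniqueness were not tested. Among the 27 were 16 of 60 pseudogenes and 11 of 102 functional segments. The longest unbroken stretch of state 8 in SD 3m that was in state 7 in SD 12m measured 46.0 kb, at chr6:69321201-69367200, with 4 segments from Igkv12-67 to Igkv13-64, both of them pseudogenes, and 68.3% of it was in state 7 in CR 12m as well. The stretch also holds Rprl1, a copy of the RNase P RNA gene, which was unmarked at 3 months and in state 7 in both 12m groups. A stretch of 20.6 kb without a segment, at chr6:67671001-67691600, was in state 7 in all 3 groups.

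In Igh, the heavy chain array, the values of state 7 in the 12m groups lay on either side of that in SD 3m. State 7 covered 3.06% (2.78 to 3.37), 8.03% (7.57 to 8.51) and 1.69% (1.48 to 1.93) of it. State 6 covered 0.418% (0.321 to 0.545), 4.22% (3.89 to 4.58) and 4.35% (4.01 to 4.71). Of the 395 state 7 bins of SD 3m, 63.0% kept that state in SD 12m. In CR 12m 18.5% kept it and 35.4% of them were in state 6.

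Most of the bins that went from state 7 to state 6 in CR 12m lay in 1 stretch. At chr12:114759201-114798600, 39.4 kb with the 4 segments Ighv1-23 to Ighv1-26 were in state 7 from end to end in SD 3m and in SD 12m. In CR 12m 30.5% of the stretch was in state 7, and its 26.8 kb at chr12:114766401-114793200 were in state 6, so that Ighv1-24, Ighv1-25 and Ighv1-26 went to state 6 and Ighv1-23 stayed in state 7. Without the whole stretch of 39.4 kb, an alternative chosen after the data were seen, state 7 covered 1.56%, 6.6% and 1.24% of Igh. In SD 12m, state 7 was higher than in SD 3m in 19 of 26 blocks of 100 kb and lower in 2, and in CR 12m it was higher in 4 and lower in 10. The longest stretch that was unmarked at 3 months and in state 7 in SD 12m, 12.2 kb at chr12:115635201-115647400, held no segment and was not in state 7 in CR 12m.

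Of 183 Ighv segments, 7, 16 and 3 were in state 7, and 2, 7 and 11 were in state 6. The 16 of SD 12m comprised 8 of 63 pseudogenes and 8 of 120 functional segments. Ighv6-1, a pseudogene, was in state 6 in all groups, inside 6.2 kb of state 6 at chr12:113603001-113609200. The 20 D segments were in state 8 in all groups. States 1 to 5 covered 20, 40 and 5 of the 12908 Igh bins in SD 3m, SD 12m and CR 12m, mainly as state 5 in stretches of at most 4.4 kb without a segment.

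Igl, the short lambda array, held its 3 V segments Iglv1, Iglv2 and Iglv3 in state 8 in all groups. State 7 covered 9, 7 and 23 of its 880 bins in SD 3m, SD 12m and CR 12m, and state 6 covered 35 bins in SD 12m, in 1 stretch of 7.0 kb, and none in SD 3m and CR 12m.

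In Tra the state that differed most between the SD groups, apart from state 8, was state 6. It covered 4.58% (4.16 to 5.03), 19.0% (18.2 to 19.8) and 8.51% (7.95 to 9.10), whereas state 7 was at 0.346%, 1.93% and 0.648%. Of the 13 Trav segments in state 6 in SD 12m, the 7 from Trav17 to Trav23 lay at the end nearest to the J cluster. The block with the highest share, chr14:53827801-53927800 from Trav18 to Trav22, was at 7.0%, 84.2% and 51.2%. Beyond it, 124 kb at chr14:53954201-54078200 were in state 6 in SD 12m, with Trav23, and 36.5% of this stretch was in that state at 3 months against 25% in CR 12m. Altogether 1, 13 and 6 of the 130 Trav segments were in state 6, against 11.5%, 15.1% and 11.9% of RefSeq genes with their TSS in that state. Trav21-dv12, which can also join as a delta chain segment, was in state 6 in all groups. Trav17, Trav20 and Trav23 were in state 6 in SD 12m and in state 8 in the other groups, and Trav18, Trav19 and Trav22 were in state 6 in both 12m groups. At the far end Trav1 entered state 6 in SD 12m, together with the olfactory receptor genes Olfr1508 and Olfr1509, and all were in state 8 in SD 3m and CR 12m. The longest stretch from state 8 to state 7 in SD 12m was of 16.8 kb, at chr14:52518401-52535200, without a segment.

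Trb was the array with the most H3K27me3 at 3 months. State 6 covered 16.6% (15.4 to 17.9), 15.2% (14 to 16.5) and 16.2% (15 to 17.5) of it. The place of state 6 was not constant. Of its 555 bins in SD 3m, 333 kept the state in SD 12m, and 71.7% kept it in CR 12m. The longest stretch in SD 3m, 81.2 kb at chr6:41069401-41150600 with 13 segments from Trbv7 to Trbv15, was in state 6 over 64.5% of its length in SD 12m and 69.0% in CR 12m. Trbv10, Trbv11, Trbv12-1, Trbv13-1, Trbv15 and Trbv31 were in state 6 in all groups. Trbv7 and Trbv8 were in state 6 in SD 3m and in state 8 in both 12m groups, while Trbv22 to Trbv25 were in state 6 in SD 12m only. State 7 held 71, 83 and 29 of the 3336 bins, and its longest stretch out of state 8 in SD 12m was of 7.2 kb, at chr6:41282001-41289200, without a segment.

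**Figure D3:**
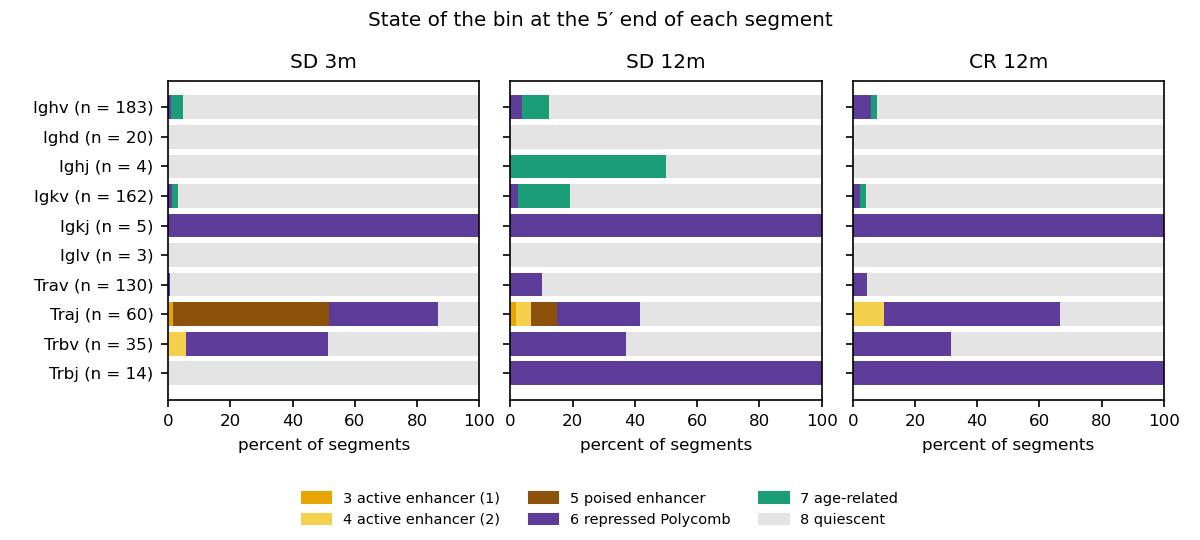
Percent of V, D and J segments of each locus whose 5′ bin was in each chromatin state, as stacked bars from 0 to 100 for SD 3m, SD 12m and CR 12m, with the number of segments beside each name. V and D segments are mostly grey (state 8), all 5 Igkj are violet (state 6) in every group, all 14 Trbj turn from grey to violet at 12 months, and Traj segments in brown (state 5) number 30, 5 and 0 of 60.

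J segments had another state than in SD 3m more often than V segments, and no D segment had one. The 5′ bin had another state than in SD 3m for 13.6% of 513 V segments and 62.7% of 83 J segments in SD 12m, and for 7.80% and 73.5% in CR 12m. Over all 616 segments the shares were 19.8% and 16.4%, against 32.5% of RefSeq genes in SD 12m and 31.7% in CR 12m. State 8 in all groups was found for 414 of 513 V, 20 of 20 D and 5 of 83 J segments. Of RefSeq genes, 42.7%, 34.9% and 41.0% had their TSS in state 8 in the single groups. Of the 83 J segments, 60 were Traj, 14 Trbj, 5 Igkj and 4 Ighj. Every Trbj and no Igkj segment had another state in the 12m groups, and Ighj3 and Ighj4 had one in SD 12m only. J segments of a cluster lie close to each other and share stretches of 1 state, so they are not independent of each other.

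The Traj cluster of 320 bins held bins in states 1 to 5, Polycomb bins and unmarked bins in every group. State 5 covered 152, 29 and 0 of its bins and state 4 covered 0, 15 and 30. State 6 covered 121, 86 and 178 bins, and state 8 covered 35, 185 and 109. Of the 60 Traj segments, 31, 9 and 6 were in states 1 to 5. Of all RefSeq genes, 15.3%, 15.1% and 13.2% had their TSS in state 1 and 6.82%, 3.11% and 2.80% in state 2. For state 3 these shares were 8.92%, 11.2% and 14.6%, and for state 4 they were 6.26%, 12.5% and 12.0%. For state 5 they were 6.59%, 2.32% and 2.10%. Traj1, Traj2, Traj3, Traj4, Traj5 and Traj6, next to the constant gene, were in states 3 to 5 in every group. Traj9 was in states 5, 4 and 8, and Traj33 was in state 5 in both SD groups and in state 6 in CR 12m. From Traj11 to Traj32 every segment was in state 8 in SD 12m and in state 6 in CR 12m. At 3 months Traj16 to Traj20 among them were in state 8 and the others in state 5.

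States 1 to 5 ran on past the Traj cluster, mostly as the poised enhancer state 5 at 3 months next to it. The 9 bins between Traj1 and Trac, the alpha constant gene, were all in state 5 in SD 3m and in state 4 in SD 12m and CR 12m. Trac itself, 19 bins at chr14:54220521-54224198, was in state 5 throughout in SD 3m and in state 4 throughout in SD 12m, and in CR 12m 11 bins were in state 4 and 8 in state 8. All 58 bins from Trac to Dad1, the interval in which the alpha enhancer lies, were in states 2 to 5 in both SD groups, and 50 were so in CR 12m, with 8 in state 8. Dad1 encodes a subunit of the oligosaccharyltransferase and is active in most cells. Before the J cluster, the lncRNA gene Gm30275, which overlaps the delta D segment Trdd1, had its TSS in state 5 in all groups. Stretches of states 1 to 5 of up to 20.8 kb, 26.4 kb and 10.6 kb overlapped Gm30275 in SD 3m, SD 12m and CR 12m. Trdc, the delta constant gene, was in state 8 in all groups.

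**Figure D4:**
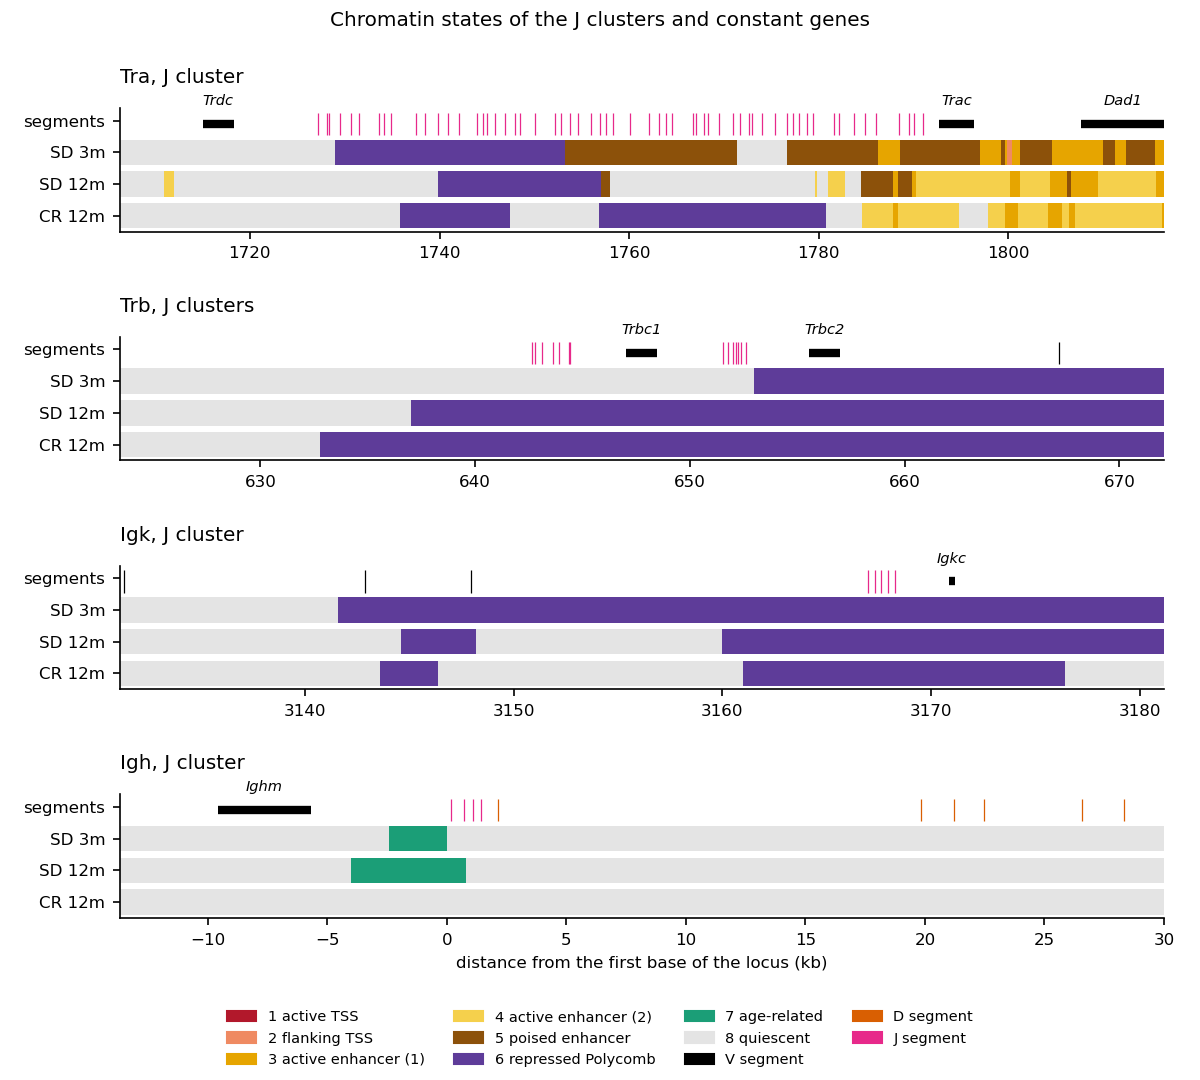
Chromatin state (colour) of the J clusters of Tra, Trb, Igk and Igh with their constant genes in SD 3m, SD 12m and CR 12m, against the distance from the first base of the locus in kb, with segments as ticks and constant genes and Dad1 as black bars. Brown and yellow shades (states 3 to 5) lie from the last Traj segments to Dad1, violet (state 6) covers Igkj and Igkc in every group and reaches Trbj at 12 months, and green (state 7) lies beside Ighj in both SD groups.

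The Trbj clusters had the same state in both 12m groups and another one at 3 months. All 51 bins from Trbj1-1 to Trbj2-7 were in state 8 in SD 3m and in state 6 in SD 12m and CR 12m, so that all 14 Trbj segments passed from state 8 to state 6. Trbc1 and the 14 bins between it and Trbj1-7 did the same. Trbc2 was in state 6 in every group, as were the 49 bins from Trbc2 to Trbv31, where the beta enhancer lies. The border of state 6, which in SD 3m lay between Trbj2-7 and Trbc2, was thus found ahead of Trbj1-1 at 12 months.

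The kappa cluster was the one whose state was the same in all groups. Igkj1 to Igkj5, the 14 bins between Igkj5 and Igkc, which hold the intronic kappa enhancer, and Igkc, the kappa constant gene, were in state 6 in SD 3m, SD 12m and CR 12m. Around it the stretch of state 6 was longer at 3 months, where it covered 26.8 kb at chr6:70697201-70724000 up to the last J segment, with Igkv3-2 and Igkv3-1. In CR 12m both of these V segments were in state 8, and in SD 12m Igkv3-1 was in state 6 and Igkv3-2 in state 8.

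Within the heavy chain J cluster state 7 was found in SD 12m only, and between the cluster and Ighm in both SD groups. Of the 30 bins between Ighj4 and Ighm, which hold the intronic heavy chain enhancer, 12 were in state 7 in SD 3m, 21 in SD 12m and none in CR 12m. Ighj3 and Ighj4 were in state 7 in SD 12m and in state 8 in the other groups, and Ighj1 and Ighj2 were in state 8 throughout. All heavy chain constant genes (Ighm, Ighd, Ighg3, Ighg1, Ighg2b, Ighg2c, Ighe and Igha) and all lambda constant genes (Iglc1, Iglc2, Iglc3 and Iglc4) were in state 8 over their whole length in all groups.

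Only Tra and Trb segments were found in states 1 to 5, namely 33 of the 616 in at least 1 group. The shares of RefSeq genes given with the Traj cluster above are for single states in single groups. A share of RefSeq genes in states 1 to 5 in at least 1 group is not given here. Besides the Traj segments, the 33 were Trbv2 and Trbv3, in state 4 in SD 3m and in state 8 in SD 12m and CR 12m. They lay in a stretch of 6.2 kb in states 1 to 5 at chr6:41043001-41049200 in SD 3m, of which 2.4 kb without a segment were in state 5 in SD 12m and 2.0 kb in CR 12m. In the same array, 5.8 kb in SD 12m and 6.2 kb in CR 12m before Prss2 were in state 5.

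Genes that lie inside the arrays without being segments were in state 8 about as often as the locus bins. Of 103 such genes, 99, 86 and 97 had their TSS in state 8, beside 94.0%, 82.2% and 91.5% of all locus bins and 42.7%, 34.9% and 41.0% of RefSeq genes. Gm30275 alone was in states 1 to 5. All 13 protein-coding genes inside Trb, among them the trypsinogens Prss1, Prss2, Prss3, Try4, Try5 and Try10, which are made in the pancreas, were in state 8 in all groups. Adam6a and Adam6b, sperm genes inside Igh, were in state 8 in all groups.

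The arrays are built of similar copies, and the authors removed reads with a mapping quality below 1. The share of 50-base windows found once in the genome was 69.3% in the loci, against 89.5% in the flanks, and it was lowest in Tra (53.1%). Bins with a mark had more unique windows than those without. Unmarked bins of SD 3m that carried state 7 in SD 12m had 87.2% unique windows and those that carried state 6 had 94.6%, against 64% for those in state 8 in both groups. The part of mappability in the states was not tested. In Tra, the 40 Trav segments of the first duplicated array (named d) had a median of 1.88% and the 34 of the other (named n) a median of 0%, and all 74 were in state 8 in all groups. Of the 177 segments with a state other than 8 in any group, 176 had at least 50% unique windows, against 328 of the 439 segments in state 8 throughout.

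Over bins with at least 50% unique windows, 30543 in the loci, state 7 covered 2.85%, 11.2% and 3.12% in SD 3m, SD 12m and CR 12m, against 1.94%, 12.4% and 4.39% of 11492 such bins sampled along the genome. The share with another state than in SD 3m was 20.6% for SD 12m and 11.0% for CR 12m, against 35.1% and 26.1% in the sample. The share of bins with another state was lower in the loci both over all bins and over bins with at least 50% unique windows. In fully unique bins, 13789 in the loci, state 6 covered 7.08%, 19.5% and 12.0%, and state 7 covered 2.78%, 13.9% and 2.89%. State 8 covered 87.6%, 64.8% and 83.7% of them. No share of the genome was obtained for fully unique bins, so the loci were not compared with it there.

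**Figure D5:**
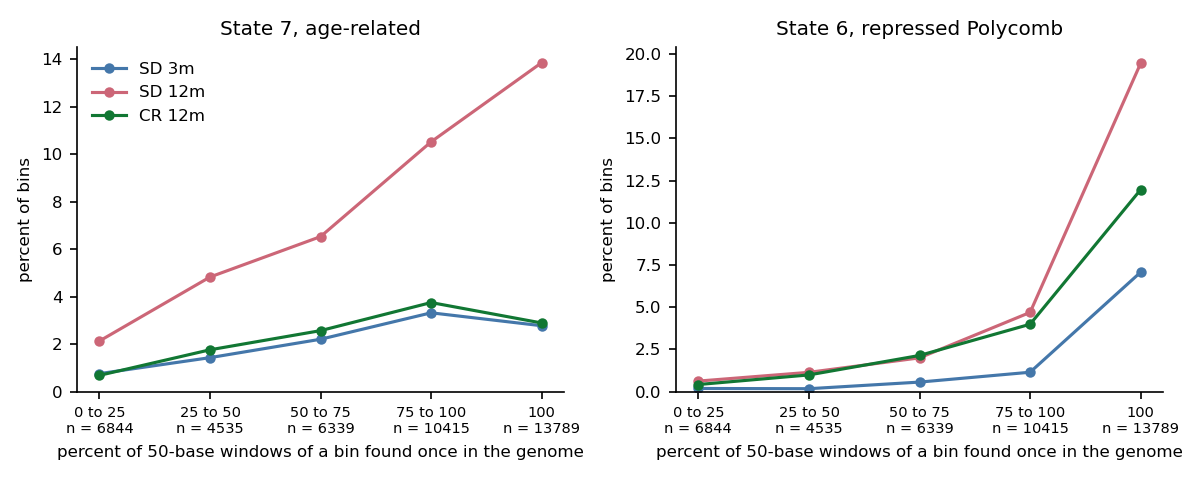
Percent of locus bins in state 7 (left) and state 6 (right) against the share of 50-base windows of the bin that occur once in the genome, in 5 classes with the number of bins below each, as lines for SD 3m, SD 12m and CR 12m. In SD 12m the share of state 7 goes from 2.13% in the least unique class to 13.9% in fully unique bins, and that of state 6 from 0.628% to 19.5%.

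Marker genes were read in the same segmentations to see which cells the liver samples held. An active TSS state (1 or 2) within 1 kb of the TSS was found for 6, 7 and 5 of 8 hepatocyte genes (Alb, Apoa1, Ttr, Ahsg, Apob, Hnf4a, Fgb and Cyp2e1) in SD 3m, SD 12m and CR 12m. Among the B cell genes Cd79a, Cd79b, Ms4a1, Pax5, Ebf1, Cd22 and Blnk, it was found for Blnk alone, in SD 3m and not in the 12m groups. It was found for 1, 1 and 0 of 5 plasma cell genes (Jchain, Prdm1, Irf4, Tnfrsf17 and Mzb1) and for 0 of 10 T cell genes (Cd3d, Cd3e, Cd3g, Cd2, Cd5, Cd8a, Cd8b1, Lck, Zap70 and Bcl11b) in any group. Among genes of all leukocytes and of Kupffer cells (Ptprc, Adgre1, Clec4f and Cd5l), Ptprc alone had it, in SD 3m and SD 12m and not in CR 12m. The TSS of Cd3d, Cd3e and Cd3g, which encode the chains that accompany the T cell receptor, were in state 6 in all groups, as was Pax5, the factor that fixes the B cell fate. Other lymphocyte genes had their TSS in the active enhancer states 3 or 4 in all groups, namely Cd79a and Cd79b, the signalling chains of the B cell receptor, Cd22, Blnk, Mzb1 and Lck, the kinase that acts beside the T cell receptor. Of the leukocyte and Kupffer cell genes, Clec4f was in state 6 in all groups and Cd5l in both 12m groups. The hepatocyte gene Hnf4a had no state 1 or 2 within 1 kb in any group. A gene in state 6, or without state 1 or 2, thus does not show that its cell type was absent. The part of lymphocytes in the states of the loci was not tested.

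Of the genes of the joining reaction, Rag1, the recombinase, had its TSS in state 6 in all groups. Rag2, its partner, was in state 5 in SD 3m and in state 4 in both 12m groups, and Dntt, which adds untemplated bases at the joins, was in state 4 in all groups. Of 7 end joining genes that all cells use (Xrcc5, Xrcc6, Xrcc4, Lig4, Prkdc, Dclre1c and Nhej1), 6, 6 and 5 had state 1 or 2 within 1 kb of the TSS. Over all RefSeq genes, 13406, 12044 and 11308 of 49210 did.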

How the data were processed

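ChIP-seq libraries of 4 histone marks were processed by the authors. Reads were aligned to mm10 with BWA 0.6.2-r126 and filtered with SAMtools 0.1.18, as the submitters' processing notes name them, and reads of mapping quality below 1 and duplicates were removed. The libraries of each group and mark were merged, binarized in bins of 200 bp and segmented with ChromHMM into 8 states. The deposited value is a state label from 1 to 8 per bin and not a count or a signal, and its read depth is unknown. SD 6m was not analysed here.

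From the deposited labels, shares of bins, transitions between groups and the state at the 5′ end of each segment were obtained with Python 3.11.15, numpy 2.4.6, pandas 2.3.3 and numba 0.67.0, and drawn with matplotlib 3.10.9. Segments came from the RefSeq annotation of GRCm38, the assembly that mm10 represents. The constant gene Ighd was not taken as a D segment, as it would have added 20979 bp to the Igh span. None of the 616 segments was in the RefSeq promoter table, so sequences were read from the genome. A 50-base window was called unique when it occurred once on both strands of the assembled genome. Intervals are Wilson 95% intervals over bins and cover counting only.

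No test was made, as each group has 1 segmentation. The code was tested on simulated data, and the largest error in a recovered share was 0.202 percentage points over 41922 bins. Segments were named by rule: the first and last of each locus, those at the ends of the longest stretch from state 8 to state 7 in SD 12m, the 10 with most bins in states 1 to 5, the V segments with the best signal and the first with an octamer, together with all constant genes and marker genes, except 1 marker gene that is not reported here. Other names were chosen after their values were seen. The members and lists were chosen with earlier results of these data known. Alternatives were bins of segments only, bins at least 50% unique, 10 kb windows, the omission of bins less than 1 kb from a change of state in SD 3m, and equal weight for the 5 loci.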

Additional observations from a re-analysis of the deposited data

Results flagged for a closer look

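State 7 in the Igh locus stood on opposite sides of SD 3m in the 12m groups, with 3.06% of the bins at 3 months against 8.03% for SD 12m and 1.69% for CR 12m. Most of the distance between SD 3m and CR 12m lay in 1 stretch of 39.4 kb (Ighv1-23 to Ighv1-26), which was in state 7 throughout in SD 3m and over 30.5% of its length in CR 12m. Without it, an alternative chosen after the data were seen, the values were 1.56%, 6.6% and 1.24%. In CR 12m state 7 was lower than in SD 3m in 10 of 26 blocks of 100 kb and higher in 4. The same order of groups was seen in Trb (2.13%, 2.49% and 0.869%) and in the 1 Mb flanks (0.764%, 2.05% and 0.698%). In Igk, Igl and Tra, state 7 in CR 12m was above SD 3m. The difference between the diets was not tested, as each group has 1 segmentation.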

How the results depend on the processing

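No paired analysis was possible because each group has 1 segmentation made from merged libraries. For the same reason no mouse could be left out, and the limit that depth sets is unknown. Values are given in the order SD 3m, SD 12m, CR 12m. With only the 1789 bins that overlap a segment, state 7 was 1.4%, 7.1% and 1.29%, state 6 was 5.87%, 9.22% and 9.89%, the share of bins with another state than SD 3m was 11.9% in CR 12m, and the share of state 8 bins that went to state 7 was 6.26% and 0.929% in the 12m groups. With only bins at least 50% unique, state 7 was 2.85%, 11.2% and 3.12%, state 6 was 3.71%, 10.8% and 7.21%, changed bins were 20.6% and 11.0%, and bins from state 8 to 7 were 9.96% and 2.3%. With the most frequent state of 10 kb windows, state 7 was 1.9%, 7.02% and 1.78%, state 6 was 2.5% in SD 3m and 7.49% in SD 12m, changed windows were 13.1% and 7.37%, and those from state 8 to 7 were 5.76% and 1.25%. Without the bins less than 1 kb from a change of state in SD 3m, state 7 was 1.61%, 8.57% and 2.28%, state 6 was 2.51%, 7.78% and 5.18%, changed bins were 14.9% and 7.23%, and bins from state 8 to 7 were 1.67% in CR 12m. With equal weight for the 5 loci, state 7 was 1.92%, 5.79% and 2.11%, state 6 was 4.5%, 9.24% and 6.33%, changed bins were 14.1% in SD 12m, and bins from state 8 to 7 were 4.77% and 1.49%. In each of these settings the SD 12m values of state 7 and state 6 were above those of SD 3m. State 7 in CR 12m lay above SD 3m in the main values, in unique bins, away from boundaries and with equal weight, and below it in segment bins and in 10 kb windows. State 6 in segment bins was higher in CR 12m than in SD 12m, in contrast to the other settings. The cause of these moves was not tested.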
